A study of Arabidopsis thaliana with 12 samples.

Results

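Arabidopsis thaliana seedlings carrying TaF5H1, a wheat gene for ferulate 5-hydroxylase, were compared with wild type (Col-0) in the absence of salt, across all expressed genes. The transgene was driven by its own wheat promoter (pTaF5H1:TaF5H1). These were 6 of the 12 libraries of the series: 3 of the untreated line and 3 of untreated wild type, from 14-day-old seedlings kept for 6 h in nutrient solution. The labels give the tissue as leaves and the series description calls the libraries of a group biological replicates, without saying which plants or cultures they came from, so p-values measure the spread between these samples. Neither the number of independent transgenic lines nor the number of plants pooled per library is stated. The other 6 libraries, from the same genotypes after 6 h in 200 mM NaCl, served to estimate the spread and to set the untreated difference beside that under salt. Of 34218 genes in the deposited table, the 17038 with a mean of at least 1 FPKM (fragments per kilobase of exon, scaled to sequencing depth) over all 12 libraries were tested.

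Ferulate 5-hydroxylase is a cytochrome P450 that adds a hydroxyl group to guaiacyl precursors of lignin and so opens the branch to syringyl lignin and sinapate esters. The Arabidopsis enzyme is FAH1, and mutants without it lack sinapoyl malate, the ultraviolet screen of the leaf epidermis. Lignin is laid down mainly in xylem and fibres, which form a small part of a young leaf. The series title names cell wall synthesis and salt tolerance as its subjects, and the comparison here gives the state of the line before salt is applied.

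The 6 libraries held 18737315 to 20560942 counts each. Root markers summed to 0 to 0.03 FPKM in each library and seed markers to 0. Along the first component of a principal component analysis, which held 69.1% of the variance, wild type lay at -49.8, -40.4 and -47.9 and the line at 56.5, 56.0 and 25.5 (replicates 1, 2 and 3). Replicate 3 of the line thus lay nearer to wild type, with correlations over genes of 0.95 to 0.958 with the wild-type libraries against 0.916 to 0.927 for the other line replicates. The second component (11.7%) set replicate 2 of the line apart at 36.0. Shoot meristem markers summed to 0.59, 0 and 0 FPKM in wild type and 0.05, 2.53 and 0 in the line. In line replicate 2 STM was at 1.41 and KNAT1 at 1.12 FPKM, and WUS and CLV3 were at 0. These markers lay below the filter and were not tested. Phloem markers summed to 198 to 227 FPKM in wild type and 114 to 155 in the line, and xylem markers to 12.3 to 21.2 and 3.82 to 13.2. Of the phloem markers SUC2 was called, at 147, 140 and 125 against 72.7, 63.7 and 87.8 FPKM (edgeR adjusted p = 0.0076). AHA3 and APL were not called (edgeR adjusted p = 0.14 and 0.29), and APL overlapped between the genotypes. No tested xylem marker was called. The 4 leaf mesophyll markers, none of them called, summed to 25256.1, 23082.5 and 24973.7 FPKM in wild type and 16164.5, 17444.7 and 16742.4 in the line, with no overlap. Of all genes tested 44.0% did not overlap between the untreated groups. Among the 4 markers RCA did overlap, at 5416, 4710 and 5118 FPKM in wild type and 5426, 4722 and 4550 in the line. The part of these shifts in the results below was not tested. In whole leaves, fewer cells of a type and less RNA per cell cannot be told apart.

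**Figure D1:**
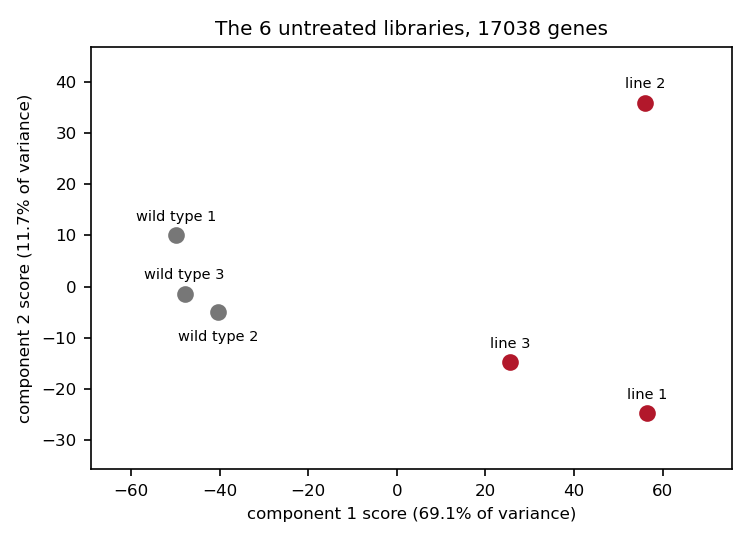
Positions of the 6 untreated libraries on the first and second principal components of 17038 genes, each axis labelled with its share of the variance. Grey points are wild type and red points the line, numbered by replicate. The line's replicates lie at 56.5, 56.0 and 25.5 on the first component and all wild-type libraries at -40.4 or below.

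Between the untreated genotypes 2371 genes differed (13.9% of those tested, edgeR quasi-likelihood test with Benjamini-Hochberg adjusted p under 0.05, no minimum fold). Of these, 1250 were higher in the line (7.34% of genes tested) and 1121 lower (6.58%). At least 2-fold changes were found for 610 genes that rose (3.58%) and 570 that fell (3.35%). At least 4-fold changes were found for 234 and 162, and at least 16-fold changes for 39 and 22. Nearest to wild type among the line's libraries was replicate 3 for 424 of the 610 rising genes (69.5%) and for 376 of the 570 falling ones (66%). Of the calls 52.7% were increases, against 66.4% when scaled by library totals only, which moved the median of all genes from 0.01 to 0.10, and 66.8% and 62.0% by limma on log2(FPKM + 0.1) and log2(FPKM + 1). The count depended on single libraries, at 1337 and 1160 without wild-type replicates 1 and 3, and 1211 and 1449 without line replicates 1 and 2. Leaving out replicate 1 of the salt-treated line gave 5121 (30.1%), and the 6 untreated libraries alone gave 3992 (23.4%).

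The largest increase by the naming rule was in MYB90 (AT1G66390), encoding a MYB activator of anthocyanin synthesis. It had 0 counts in all 3 wild-type libraries and 11.4, 12.7 and 5.14 FPKM in the line, at least 180-fold higher against 3 counts over the wild-type group (edgeR adjusted p = 0.00024). PI4KG3 (AT5G24240), encoding a phosphatidylinositol 4-kinase of the gamma type, was at 0.15, 0.08 and 0.06 FPKM in wild type and 28.6, 20.6 and 25.7 in the line. The groups stood far apart, with a log2 fold change (log2FC) of 7.86 ± 0.82 (SE, edgeR adjusted p = 0.00031). PR1 (AT2G14610), the classic marker of salicylate signalling, was at 0.47, 0.40 and 0.81 FPKM in wild type and 143, 126 and 19.3 in the line (7.30 ± 1.43, edgeR adjusted p = 0.0071). Line replicate 3 was the lowest of the line there, yet well above wild type. The transcription factor gene WRKY75 (AT5G13080) was at 0, 0.25 and 0.12 against 7.76, 8.81 and 2.71 FPKM (5.49 ± 1.1, edgeR adjusted p = 0.0077).

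CHX17 (AT4G23700), a cation/proton exchanger gene, went from 0.243 ± 0.0503 to 5.0 ± 3.07 FPKM (mean ± SD, n = 3 here and below; log2FC 4.27 ± 0.88, edgeR adjusted p = 0.0091). The pectin methylesterase gene PME17 (AT2G45220) was called at 5.22 ± 1.33 (edgeR adjusted p = 0.023) and ARD (AT2G26400), for an acireductone dioxygenase of methionine salvage, at 4.79 ± 1.25 (edgeR adjusted p = 0.026). Both calls rested on most of the untreated libraries. PME17 was lost without any one of them but line replicate 3 (highest edgeR adjusted p 0.088), ARD without wild-type replicates 1 or 3 or line replicates 1 or 2 (highest 0.095), and both with limma on log2(FPKM + 1). The lipid transfer protein gene LTP4 (AT5G59310) was called at 8.16 ± 2.11 (edgeR adjusted p = 0.025) on 1 library alone. It was at 0.60, 81.9 and 0.54 FPKM in the line and 0.19, 0 and 0.06 in wild type, and at 2.59 without line replicate 2, where it was not called (as also without any 1 wild-type library, with limma, and with the replicate number as a block).

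The largest decreases included BHLH100 (AT2G41240), a regulator of the iron deficiency response, at 4.38, 6.86 and 4.5 FPKM in wild type and 0.21, 0.04 and 0.04 in the line (-5.72 ± 0.86, edgeR adjusted p = 0.0032). The glutaredoxin genes GRXS10 (AT3G21460) and GRXS7 (AT4G15670) went from 14.0 ± 2.14 to 0.39 ± 0.165 FPKM (-5.21 ± 0.34, edgeR adjusted p = 3.4e-05) and from 14.0 ± 2.32 to 0.55 ± 0.386 (-4.74 ± 0.36, edgeR adjusted p = 0.00011). CER1 (AT1G02205), required for the alkanes of leaf wax, was at 23.0, 17.8 and 23.7 FPKM in wild type and 0.52, 0.93 and 1.27 in the line (-4.66 ± 0.57, edgeR adjusted p = 0.0007). AGP17 (AT2G23130), an arabinogalactan protein gene, fell from 30.8 ± 0.854 to 1.31 ± 0.981 FPKM. The related transcription factor genes BZIP61 (AT3G58120) and BZIP34 (AT2G42380) fell from 23.6 ± 2.09 to 1.03 ± 0.847 and from 12 ± 0.519 to 0.54 ± 0.322. GER3 (AT5G20630), a germin-like protein gene, went from 203, 129 and 130 FPKM to 1.03, 5.27 and 13.0 (-4.67 ± 0.98, edgeR adjusted p = 0.0098). Its call was lost without line replicate 2 (edgeR adjusted p = 0.051).

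**Figure D2:**
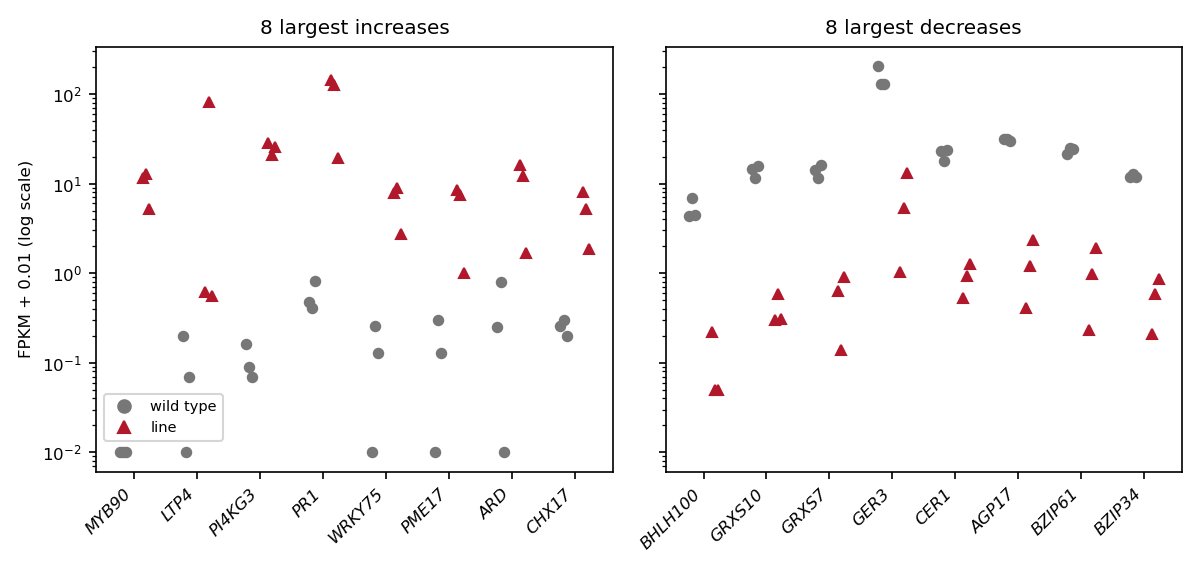
FPKM + 0.01 on a log axis in each untreated library for the 8 genes with the largest increases (left) and the 8 with the largest decreases (right) named by rule. Grey circles are wild type and red triangles the line, each set ordered by replicate from left to right. The groups do not overlap, as the rule requires, and LTP4 has 1 line library at 81.9 FPKM and the other two at 0.60 and 0.54.

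Promoters of 4 of the genes that rose most are shown because they carry a W-box, the element that WRKY proteins bind, and WRKY75 is itself among these genes. Windows are the 250 bases before the annotated gene start, read 5′ to 3′ on the gene's strand from the RefSeq TAIR10.1 assembly. Searched on both strands for TTGACC or TTGACT, these 4 windows held 1 match each, printed in capitals. They lie at chr1:24763691-24763940 on the plus strand for MYB90, chr5:8234151-8234400 on the minus strand for PI4KG3, chr5:4151202-4151451 on the minus strand for WRKY75 and chr2:18646607-18646856 on the minus strand for PME17.

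MYB90: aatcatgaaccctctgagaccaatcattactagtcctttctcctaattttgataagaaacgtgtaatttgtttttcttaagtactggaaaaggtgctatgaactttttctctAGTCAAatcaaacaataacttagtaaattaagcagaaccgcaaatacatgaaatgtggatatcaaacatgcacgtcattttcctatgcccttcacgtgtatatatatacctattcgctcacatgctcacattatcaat
PI4KG3: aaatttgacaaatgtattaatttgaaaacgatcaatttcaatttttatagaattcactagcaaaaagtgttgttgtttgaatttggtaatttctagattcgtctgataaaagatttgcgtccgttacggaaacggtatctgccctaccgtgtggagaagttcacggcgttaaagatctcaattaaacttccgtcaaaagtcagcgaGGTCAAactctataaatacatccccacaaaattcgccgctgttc
WRKY75: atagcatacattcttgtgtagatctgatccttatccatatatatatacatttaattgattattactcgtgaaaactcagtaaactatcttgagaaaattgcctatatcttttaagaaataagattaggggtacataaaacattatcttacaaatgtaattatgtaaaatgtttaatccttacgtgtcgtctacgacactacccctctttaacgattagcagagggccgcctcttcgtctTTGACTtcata
PME17: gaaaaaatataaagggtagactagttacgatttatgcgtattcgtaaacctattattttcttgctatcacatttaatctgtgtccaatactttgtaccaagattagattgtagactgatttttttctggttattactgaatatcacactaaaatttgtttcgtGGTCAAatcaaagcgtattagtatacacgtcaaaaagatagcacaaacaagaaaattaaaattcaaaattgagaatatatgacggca

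The match began 138 bases before the gene start in MYB90, 44 in PI4KG3, 11 in WRKY75 and 87 in PME17. The windows of LTP4, PR1 and ARD held no match in these letters. Among genes that rose at least 2-fold, 35.9% of 582 windows held a W-box, against 27.7% of 564 for genes that fell as much and 28.4% of 27443 protein-coding genes in all. The ABA response element (ACGTGTC or ACGTGGC) was in 10.5% of the rising, 5.50% of the falling and 6.39% of all windows. The G-box (CACGTG), which overlaps that element where both occur together, was in 10.1%, 6.56% and 6.49%. The evening element core (AAATATC) was in 14.1%, 14.5% and 12.2%. These are matches of letters, not sites of binding, and no test was made of them.

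In the pathway to which the transgene's enzyme belongs, the share of genes called was near that of all genes. Of 19 tested monolignol genes, 1 rose and 2 fell, with a median log2FC of 0.06 beside 0.01 for all genes tested. The rises were 5 without replicate 1 of the salt-treated line and 4 with the 6 untreated libraries alone. CAD5 (AT4G34230), a cinnamyl alcohol dehydrogenase of the last step, was at 12.1, 17.2 and 14.3 FPKM in wild type and 29.7, 29.3 and 28.9 in the line. The line's libraries were all higher (0.92 ± 0.15, edgeR adjusted p = 0.0033). HST (HCT, AT5G48930), the hydroxycinnamoyltransferase that makes the shikimate esters on the way to guaiacyl units, was at 75.0, 71.2 and 70.8 against 45.3, 48.6 and 49.5 FPKM (-0.69 ± 0.12, edgeR adjusted p = 0.0036). PAL2, a phenylalanine ammonia-lyase gene, was called at -0.47 ± 0.14 (edgeR adjusted p = 0.044), and this call made the count of falling genes 1 without any 1 of 8 libraries.

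FAH1 itself (CYP84A1, AT4G36220) was at 12.6, 13.6 and 13.6 FPKM in wild type and 23.1, 23.3 and 17.6 in the line. The groups did not overlap, as for 44.0% of all genes tested. The gene was not called (0.60 ± 0.27, edgeR adjusted p = 0.16), whereas with the 6 untreated libraries alone it was (adjusted p = 0.012). These reads were assigned to the Arabidopsis gene, and the wheat transgene was not analysed here. CYP84A4, a relative of FAH1 that makes arabidopyrones, was at 2.02 ± 0.266 and 1.64 ± 0.684 FPKM (-0.40 ± 0.49, edgeR adjusted p = 0.63). The caffeate O-methyltransferase gene OMT1, which acts next after FAH1, was at 29.9 ± 0.859 and 35.3 ± 5.09 (0.15 ± 0.15, edgeR adjusted p = 0.53). Genes of the steps between were close in level, such as CYP98A3 at 22.1 ± 0.656 and 24.3 ± 0.798, CCoAOMT1 at 91.6 ± 9.38 and 94.8 ± 2.96, and CCR1 at 23.6 ± 2.15 and 24.2 ± 2.48 FPKM.

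Past ferulate 5-hydroxylase, SNG1 (AT2G22990) fell. It encodes the enzyme that makes sinapoyl malate from sinapoyl glucose, and it was at 134, 141 and 140 FPKM in wild type and 66.1, 78.5 and 73.8 in the line (-1.02 ± 0.12, edgeR adjusted p = 0.0007). Of 8 tested genes of the sinapate branch, related glucosyltransferases and phenylpropanoid repressors 3 rose, and SNG1 was the 1 that fell. ALDH2C4, UGT84A2, UGT84A3 and the repressor gene MYB4 were not called. UGT72E1, which glucosylates monolignol aldehydes, rose from 17.2 ± 3.68 to 31.5 ± 4.25 FPKM. So did the phenylpropanoid repressor genes MYB7, from 5.28 ± 1.53 to 11.3 ± 2.22, and MYB32, from 4.83 ± 0.64 to 9.46 ± 1.64. Without line replicate 1 only 1 rise remained in that count. The sinapate glucosyltransferase gene UGT84A2 was at 7.74 ± 0.762 and 7.68 ± 0.878 FPKM (-0.10 ± 0.14, edgeR adjusted p = 0.66). None of 15 secondary wall genes was called (median 0.02). That median was the value of FLA11, at 7.93, 3.74 and 5.52 FPKM in wild type and 0.87, 14.4 and 3.36 in the line. CTL2 was at 3.67, 2.65 and 2.56 against 1.35, 9.59 and 1.49. Line replicate 2 was also the highest line library for CESA4, CESA7, CESA8, COBL4 and FLA12, but not for IRX14, IRX10L, IRX15-L or XCP1. The median thus leaned on that library. LAC2, with the smallest p of the 3 tested laccases, was at 2.14 ± 0.272 and 0.72 ± 0.21 FPKM (edgeR adjusted p = 0.11). The secondary wall cellulose synthase genes CESA4, CESA7 and CESA8 overlapped between genotypes, while the vessel protease gene XCP2 was at 11.7, 8.41 and 7.55 in wild type and 1.62, 4.75 and 4.24 FPKM in the line (edgeR adjusted p = 0.086).

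Genes of salicylate synthesis and systemic resistance were higher in the line. Salicylate is made from isochorismate and drives resistance to pathogens that feed on living cells, and N-hydroxypipecolate carries the systemic signal. Of 24 tested members 11 rose and 0 fell, with a median log2FC of 0.93. The mean of the list on the log2(FPKM + 1) scale lay above the wild-type mean by 1.69, 1.3 and 0.77 in line replicates 1, 2 and 3, and within 0.08 of it in each wild-type library. For synthesis, EDS16 (ICS1), the isochorismate synthase gene, was at 3.94, 4.77 and 3.73 FPKM in wild type and 39.4, 13.8 and 11.1 in the line (2.28 ± 0.45, edgeR adjusted p = 0.0074). PBS3, which conjugates isochorismate to glutamate, went from 4.10 ± 0.452 to 17.8 ± 9.94 FPKM (2.03 ± 0.40, edgeR adjusted p = 0.0068). DTX47 (EDS5), the exporter of isochorismate from the plastid, rose by 1.08.

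The pipecolate genes ALD1 and FMO1 rose from 0.113 ± 0.112 to 3.6 ± 2.51 FPKM (4.91 ± 0.80, edgeR adjusted p = 0.0028) and from 0.10 ± 0.0819 to 2.1 ± 1.53 (4.29 ± 1.05, edgeR adjusted p = 0.02). Enzymes that inactivate salicylate rose with them: DLO1, a salicylate 3-hydroxylase gene, from 2.07 ± 0.119 to 27.0 ± 18, and DMR6, a 5-hydroxylase gene, from 31.5 ± 2.58 to 88.0 ± 29.8. Among the targets, BGL2 (PR2), a glucanase gene, was at 50.7, 49.0 and 59.8 FPKM in wild type and 630, 394 and 298 in the line (2.96 ± 0.39, edgeR adjusted p = 0.00092). PR5 was at 33.3, 27.1 and 29.1 against 478, 261 and 132 (3.19 ± 0.56, edgeR adjusted p = 0.004). Line replicate 3 was the lowest line library for each of EDS16, PBS3, PR1, BGL2 and PR5. The receptor and regulator genes did not pass the test, with NPR1 at -0.10, EDS1 at 0.30, PAD4 at 0.64 and SARD1 at -0.01 on the log2FC scale.

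Other defence families differed in how many members were called. Of 32 cysteine-rich receptor kinase genes 12 rose and 1 fell (CRK21, -1.8 ± 0.28, edgeR adjusted p = 0.0022). The count of rises was 5, 6 and 5 without line replicate 1 and wild-type replicates 1 and 3, and 6 with a filter of FPKM 5. That filter also takes members below it out of the test, here and below. Of 44 WRKY genes 9 rose and 1 fell (WRKY23, -1.05), with the rises at 4, 4, 4 and 5 without line replicates 1 and 2 and wild-type replicates 1 and 3, at 16 without replicate 1 of the salt-treated line and at 14 with the 6 untreated libraries alone. WRKY45, known for activating phosphate transporter genes, rose from 1.96 ± 0.151 to 8.96 ± 3.08 FPKM (2.1 ± 0.28, edgeR adjusted p = 0.0011) and WRKY60 from 3.56 ± 0.146 to 12.7 ± 3.94 (1.74 ± 0.31, edgeR adjusted p = 0.004). Of 16 genes of pattern-triggered immunity 2 rose and 2 fell, the rises at 4 without wild-type replicate 2 and 1 without any of 5 other libraries, and the falls at 0 without wild-type replicate 2 or line replicate 1 and 1 without line replicate 2. SIRK (FRK1), a receptor kinase gene used as a marker of flagellin responses, rose by 3.13 ± 0.62 (edgeR adjusted p = 0.0074). Of 31 jasmonate genes 2 rose, a share below the 7.34% of all genes: PDF1.2A from 2.98 ± 1.49 to 16.8 ± 11.1 FPKM and TIFY11A (JAZ5) from 26.2 ± 4.93 to 42.1 ± 8.41. Those calls were lost without 3 and 7 of the 12 libraries in turn.

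**Figure D3:**
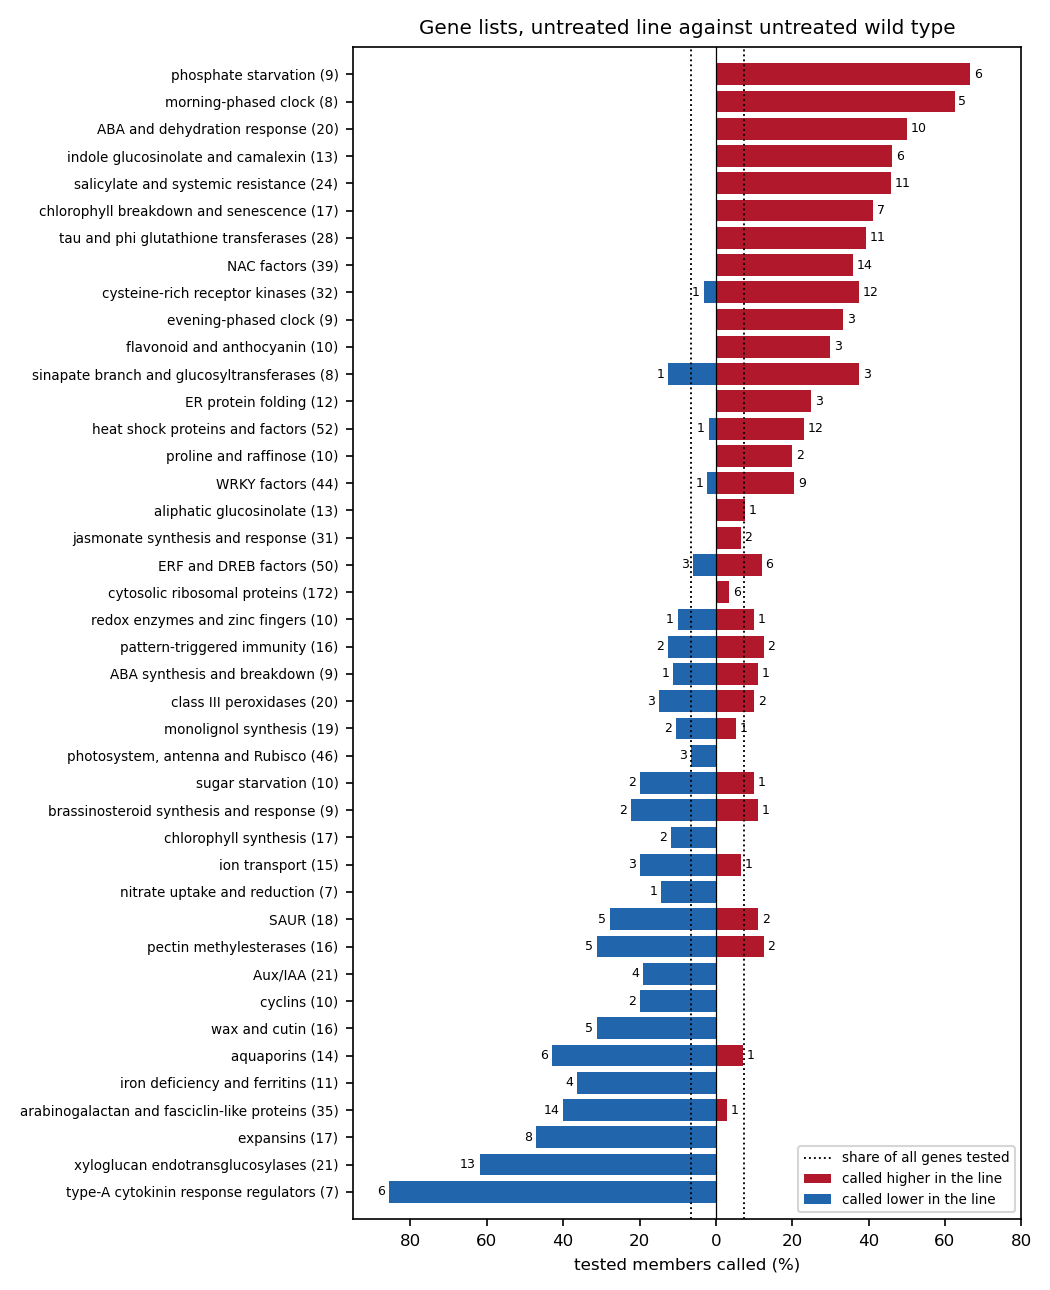
Share of tested members called higher (red, to the right) and lower (blue, to the left) in the untreated line for the 42 gene lists with at least 7 tested members and at least 1 call. Numbers at the bars are genes called, numbers in brackets are genes tested, and dotted lines mark 7.34% and 6.58%, the shares of all genes tested. Phosphate starvation lies at the top with 6 of 9 and type-A cytokinin response regulators at the bottom with 6 of 7.

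Phosphate starvation genes formed the list with the largest median. These genes are switched on when phosphate runs low, by the factor PHR1 that SPX proteins hold in check. Of 9 tested members 6 rose and 0 fell, and the median log2FC was 2.04. SPX1 (AT5G20150) was at 4.16, 2.43 and 3.59 FPKM in wild type and 62.9, 48.6 and 19.8 in the line (3.6 ± 0.43, edgeR adjusted p = 0.00064). The line's libraries were all higher by several fold, replicate 3 again least. ATPS3 (G3PP1, AT3G47420), for a glycerol 3-phosphate permease, was at 4.56, 5.41 and 7.47 against 32.7, 22.5 and 21.4 FPKM (2.04 ± 0.21, edgeR adjusted p = 0.00031). The acid phosphatase gene PAP17 went from 10.9 ± 2.00 to 53.4 ± 22.4 FPKM, the phosphate transporter gene PHT1-4 from 0.663 ± 0.422 to 5.60 ± 2.40, and MGD3, for a galactolipid synthase that replaces phospholipids, from 0.403 ± 0.206 to 4.96 ± 3.36. SPX2 rose by 0.81 ± 0.16 (edgeR adjusted p = 0.0076). PHO1, which loads phosphate into xylem, was at 3.21 ± 0.736 and 3.55 ± 0.949 FPKM (0.05 ± 0.26, edgeR adjusted p = 0.91). The count of 6 lay between 6 and 7 whichever library was left out.

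Abscisic acid (ABA) is the hormone of water shortage. Of 20 genes of ABA and dehydration responses 10 rose and 0 fell (median 0.68). The homeodomain genes ATHB-7 and ATHB-12, which ABA and drought induce, had the smallest p. ATHB-7 was at 7.39, 11.4 and 10.7 FPKM in wild type and 32.4, 35.0 and 24.5 in the line (1.55 ± 0.21, edgeR adjusted p = 0.001), and ATHB-12 rose by 1.06 ± 0.15 (edgeR adjusted p = 0.0014). The dehydrin genes COR47, ERD10 and ERD14 rose from 254 ± 41.8 to 434 ± 8.06, from 286 ± 35.3 to 482 ± 19.4 and from 572 ± 3.96 to 938 ± 124 FPKM. The count was 5, 5, 3, 5 and 5 without line replicates 1 and 2 and wild-type replicates 1, 2 and 3, 6 without replicate 1 of salt-treated wild type, and 5 with the replicate number as a block. NCED3, of the rate-limiting step of ABA synthesis, was at 6.10 ± 2.58 and 7.95 ± 2.32 FPKM (0.29 ± 0.28, edgeR adjusted p = 0.52). LTI65 (RD29B), a reporter of ABA signalling, was at 0.45 ± 0.246 and 0.663 ± 0.0808 (0.47 ± 0.54, edgeR adjusted p = 0.6). None of 7 PP2C phosphatase genes was called (ABI1 had the smallest p, at 0.48 ± 0.15, edgeR adjusted p = 0.06), nor any of 7 receptor genes (PYL9, 0.40 ± 0.15, edgeR adjusted p = 0.09).

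NAC transcription factors act in stress and ageing, and 14 of their 39 tested genes rose while 0 fell (median 0.71). NAC019 was at 15.6, 23.9 and 26.8 FPKM in wild type and 40.6, 73.3 and 66.1 in the line (1.35 ± 0.24, edgeR adjusted p = 0.004), and NAC090 rose from 22.8 ± 4.14 to 58.8 ± 14.1 (1.28 ± 0.24, edgeR adjusted p = 0.0058). The count was 7, 8, 7 and 6 without line replicates 1 and 2 and wild-type replicates 1 and 3, and 22 without replicate 1 of the salt-treated line. Of 17 genes of senescence and chlorophyll breakdown 7 rose and 0 fell (median 0.52). SAG13, an early senescence gene, was at 3.86, 4.74 and 2.95 FPKM in wild type and 61.1, 56.5 and 25.5 in the line (3.54 ± 0.45, edgeR adjusted p = 0.00079). NAC029 (NAP) and NAC92 (ORE1), which promote leaf senescence, rose from 15.3 ± 4.02 to 46.3 ± 2.92 and from 11 ± 1.8 to 28.6 ± 6.66 FPKM. The stay-green genes SGR1 and SGR2 of chlorophyll breakdown rose by 0.83 ± 0.17 (edgeR adjusted p = 0.0089) and 1.67 ± 0.29 (edgeR adjusted p = 0.0039). SAG12, the protease gene of late senescence, had 0 counts in wild type and 0.49, 3.92 and 0.08 FPKM in the line (edgeR adjusted p = 0.12).

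Genes of the circadian clock also differed. In Arabidopsis the clock consists of morning-expressed and evening-expressed genes that repress each other, and the labels give no time of day for sampling. Of 8 morning-phased genes 5 rose (median 0.94), with 4 to 7 whichever library was left out. The rises were 2 with a filter of FPKM 5, which takes members below it out of the test. LNK1, a coactivator gene, was at 0.98, 0.98 and 1.04 FPKM in wild type and 6.03, 3.28 and 3.75 in the line (2.03 ± 0.24, edgeR adjusted p = 0.00064). APRR7 (PRR7), a repressor of CCA1 and LHY, went from 1.35 ± 0.347 to 4.95 ± 1.85 FPKM (1.79 ± 0.29, edgeR adjusted p = 0.0027). LHY went from 1.3 ± 0.0902 to 2.77 ± 0.145 and RVE8 from 3.81 ± 0.607 to 8.66 ± 1.79. Its partner CCA1, at 0.957 ± 0.315 and 1.79 ± 0.455 FPKM, was not called (0.82 ± 0.33, edgeR adjusted p = 0.12). Of 9 evening-phased genes 3 rose. GI was at 0.45, 0.49 and 0.42 FPKM against 3.46, 1.68 and 2.16 (2.34 ± 0.27, edgeR adjusted p = 0.00056), PRR3 rose by 0.85 ± 0.15 (edgeR adjusted p = 0.004) and ELF4 by 0.69 ± 0.15 (edgeR adjusted p = 0.011).

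Among secondary metabolism and detoxification genes, 11 of 28 tau and phi glutathione transferases rose and 0 fell (median 0.61). The rises were 7, 4, 4, 7 and 2 without line replicates 1 and 2 and wild-type replicates 1, 2 and 3, and 7 with a filter of FPKM 5. GSTU4 rose from 5.74 ± 1.8 to 28.5 ± 3.32 FPKM (2.22 ± 0.32, edgeR adjusted p = 0.0014). Indole glucosinolate and camalexin genes, which make tryptophan-derived defence compounds, rose in 6 of 13 cases (median 0.74), in 3 without line replicate 1 and in 10 without replicate 1 of the salt-treated line. CYP71B15 (PAD3), of the last step to camalexin, was at 3.75, 7.71 and 4.16 FPKM in wild type and 30.4, 24.3 and 28.5 in the line (2.32 ± 0.42, edgeR adjusted p = 0.0045). CYP83B1, of indole glucosinolate synthesis, rose from 236 ± 31.5 to 418 ± 22.6 (0.74 ± 0.14, edgeR adjusted p = 0.0065). Of 13 aliphatic glucosinolate genes only SOT17, a sulfotransferase gene, rose (1.04 ± 0.18, edgeR adjusted p = 0.004), against 2 without wild-type replicate 2 and 7 without replicate 1 of the salt-treated line or with the 6 untreated libraries alone.

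Of 10 flavonoid and anthocyanin genes 3 rose, and the list's median was 1.46. Besides MYB90 these were its close relative MYB75 (PAP1), at 1.59, 1.44 and 1.89 FPKM in wild type and 13.3, 15.6 and 16.3 in the line (3.10 ± 0.47, edgeR adjusted p = 0.0018), and GSTF12 (TT19), which carries anthocyanin to the vacuole, at 1.12, 0.05 and 0.27 against 2.89, 4.62 and 1.82. The enzyme genes did not pass, with CHS at 7.48 ± 4.44 and 13.8 ± 2.75 FPKM (edgeR adjusted p = 0.2) and DFRA at 1.06 ± 1.24 and 3.42 ± 3.29 (edgeR adjusted p = 0.25). In both, wild-type replicate 1 was the highest of its group, and without it 7 of the 10 were called by edgeR. With all 12 libraries, limma on log2(FPKM + 0.1) called 5 of the 10. Of 52 heat shock genes 12 rose and 1 fell (HSP70-16, -0.50 ± 0.11, edgeR adjusted p = 0.015). The rises were 6 without line replicate 1, 6 without wild-type replicate 1 and 7 without wild-type replicate 3. HSP90-1 rose from 6.36 ± 0.404 to 18.9 ± 5.58 FPKM (1.48 ± 0.26, edgeR adjusted p = 0.004). HSP17.7 had 3 counts over wild type, and its count ratio was 17.6 (95% exact binomial interval 5.74 to 87.9, for counting error only). Of 12 genes of protein folding in the endoplasmic reticulum 3 rose, among them MED37B (BIP3), at 1.08, 0.92 and 0.89 FPKM in wild type and 16, 5.97 and 4.44 in the line (3.10 ± 0.52, edgeR adjusted p = 0.0032). That count was 1 without line replicate 1 or wild-type replicates 1 or 3, and 6 without replicate 1 of the salt-treated line or with the 6 untreated libraries alone.

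Genes that loosen and extend the primary cell wall were lower in the line. Xyloglucan endotransglucosylases cut and rejoin the hemicellulose between cellulose fibrils, and expansins let those fibrils slide. Of 21 xyloglucan endotransglucosylase genes 13 fell and 0 rose (median -1.48). XTH25 was at 52.0, 69.6 and 73.0 FPKM in wild type and 4.26, 12 and 8.27 in the line (-3.08 ± 0.42, edgeR adjusted p = 0.0012). XTH4, the most abundant in wild type but XTH22, went from 164 ± 20.9 to 24.8 ± 10.7 FPKM (-2.82 ± 0.48, edgeR adjusted p = 0.0033). The count was 6, 6 and 8 without line replicate 1 and wild-type replicates 2 and 3. Of 17 expansin genes 8 fell and 0 rose (median -1.42), with 4 and 5 without line replicates 1 and 2, 5 with a filter of FPKM 5, 13 without replicate 1 of the salt-treated line and 13 with the 6 untreated libraries alone. EXPA8 was at 29.9, 22.6 and 30.0 FPKM against 3.32, 3.27 and 3.02 (-3.19 ± 0.33, edgeR adjusted p = 0.00066), and EXLA1 fell from 42.0 ± 3.81 to 13.2 ± 2.32 (-1.76 ± 0.23, edgeR adjusted p = 0.00083).

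Of 35 arabinogalactan and fasciclin-like protein genes, for glycoproteins of the cell surface, 14 fell and 1 rose (median -0.92). AGP21 was at 197, 154 and 155 FPKM in wild type and 2.90, 12.2 and 11.1 in the line (-4.36 ± 0.56, edgeR adjusted p = 0.00082), and AGP12 fell from 129 ± 8.89 to 20.8 ± 7.94 (-2.72 ± 0.24, edgeR adjusted p = 0.00018). The falls were 5, 9, 7, 7 and 5 without line replicates 1 and 2 and wild-type replicates 1, 2 and 3. Of 16 genes with a pectin methylesterase (PME) symbol 5 fell and 2 rose. The falls were 3 without line replicates 1 or 2 or wild-type replicates 2 or 3, and the rises 0 without line replicate 1 or wild-type replicates 1 or 2. PME41 went from 20.1 ± 1.17 to 3.55 ± 0.708 FPKM (-2.59 ± 0.25, edgeR adjusted p = 0.00024) and PME32 from 9.18 ± 0.302 to 4.41 ± 1.37 (-1.15 ± 0.18, edgeR adjusted p = 0.0024). None of 9 primary wall cellulose genes was called, although all 9 were lower in the line (log2FC -0.82 to -0.49). With the 6 untreated libraries alone 7 fell, and without replicate 1 of the salt-treated line 9. CESA3 was at 122, 140 and 129 FPKM against 76.4, 61.4 and 107 (-0.76 ± 0.28, edgeR adjusted p = 0.097).

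**Figure D4:**
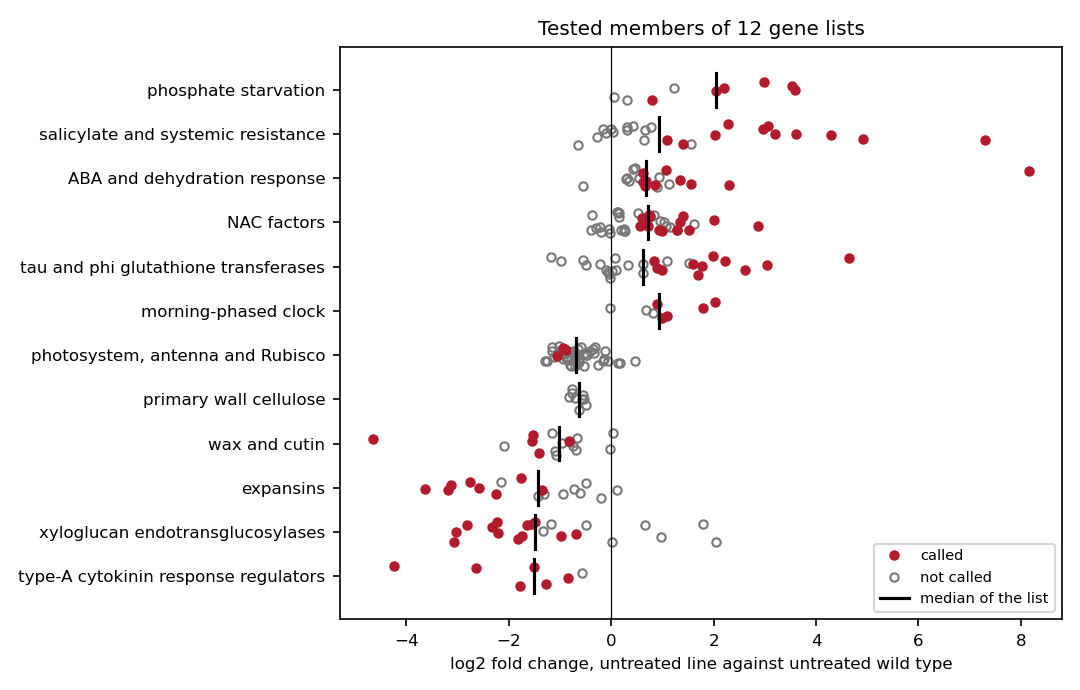
Log2 fold change of each tested member of 12 gene lists, untreated line against untreated wild type. Filled red points are called, open grey points are not, and black bars are the medians of the lists. Medians run from 2.04 for phosphate starvation to -1.50 for type-A cytokinin response regulators, and all 9 primary wall cellulose genes lie below 0 without a call.

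Among growth hormone genes, those of cytokinin response fell most widely. Type-A response regulators are early targets of cytokinin that damp its signal. Of 7 tested genes 6 fell (median -1.50), with 5 to 7 whichever library was left out. ARR7 was at 20.8, 21.7 and 28.1 FPKM in wild type and 3.57, 3.86 and 4.56 in the line (-2.65 ± 0.27, edgeR adjusted p = 0.0003). ARR6 was at 5.45, 8.51 and 11.1 against 0.34, 0.30 and 0.75 (-4.25 ± 0.51, edgeR adjusted p = 0.00066). The line's libraries lay close together for ARR7, while for ARR6 they were low and spread (0.463 ± 0.249 FPKM). ARR8, at 14.0 ± 1.35 and 10.1 ± 0.994 FPKM, was the 1 not called (edgeR adjusted p = 0.094).

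Of 21 Aux/IAA genes, repressors that auxin induces and destabilises, 4 fell and 0 rose. IAA19 was at 16.3, 17 and 19.2 FPKM against 3.68, 5.16 and 5.34 (-1.98 ± 0.16, edgeR adjusted p = 0.00012), and IAA7 fell from 92.6 ± 2.44 to 48.7 ± 9.66 (-1.02 ± 0.18, edgeR adjusted p = 0.0042). The falls were 2 without line replicate 1, line replicate 2 or wild-type replicate 1, and 2 with a filter of FPKM 5. They were 8 without replicate 1 of the salt-treated line and 9 with the 6 untreated libraries alone. Of 18 small auxin up RNA genes 5 fell and 2 rose, with SAUR50 at 22.4 ± 7.85 and 2.76 ± 0.375 FPKM (-3.11 ± 0.48, edgeR adjusted p = 0.0021). The falls were 2, 3 and 2 without line replicate 1 and wild-type replicates 1 and 3, 8 without replicate 1 of the salt-treated line or with the 6 untreated libraries alone, and 2 with a filter of FPKM 5. The rises were 0, 1 and 0 without line replicate 2 and wild-type replicates 1 and 3. Of 9 brassinosteroid genes 2 fell and 1 rose, all for synthesis enzymes. CYP90B1 (DWF4) and CYP85A2 fell, from 9.85 ± 0.506 to 3.59 ± 0.31 FPKM (-1.54 ± 0.17, edgeR adjusted p = 0.00045) and from 7.03 ± 0.49 to 2.69 ± 0.885 (-1.47 ± 0.22, edgeR adjusted p = 0.0019). ROT3 rose from 0.45 ± 0.113 to 1.2 ± 0.511 (1.33 ± 0.31, edgeR adjusted p = 0.017), a call lost without wild-type replicates 1 or 3, and the falls were 5 without replicate 1 of the salt-treated line.

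Photosynthesis genes were lower in level, mostly without a call. Of 46 nuclear genes for photosystems, antennae and Rubisco 43 were lower in the line (median -0.69), yet 3 fell and 0 rose by the test. PSAD2, of photosystem I, was at 357, 306 and 342 FPKM in wild type and 167, 221 and 194 in the line (-0.88 ± 0.15, edgeR adjusted p = 0.0034), and LHCB2.4 fell by 0.94 ± 0.18 (edgeR adjusted p = 0.0058). With the 6 untreated libraries alone 34 fell and 1 rose. The falls were 36 without replicate 1 of the salt-treated line, 5 without its replicate 2, and 8 by DESeq2. The antenna gene LHCB1.3 was at 4998, 6505 and 6162 FPKM against 1726, 2871 and 3093. It did not overlap between the genotypes, as 44.0% of all genes did not, and was not called (-1.29 ± 0.49, edgeR adjusted p = 0.099). All 17 tested chlorophyll synthesis genes were lower and 2 fell, HEMB1 from 68.9 ± 4.55 to 37.5 ± 3.40 FPKM (-0.97 ± 0.14, edgeR adjusted p = 0.0015) and PORB from 265 ± 5.87 to 120 ± 19.6 (-1.23 ± 0.33, edgeR adjusted p = 0.027). The count was 1 without any 1 of 5 untreated libraries (not line replicate 3), 10 with the 6 untreated libraries alone, 4 by DESeq2 and 12 without replicate 1 of the salt-treated line. The mesophyll markers, whose sum but not each member was lower in every line library, are themselves photosynthesis genes. Their part in these values was not tested. Near-identical antenna and Rubisco genes may have divided their reads in an unknown way.

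Water channels and the cuticle were further lists with falls. Of 14 aquaporin genes 6 fell and 1 rose (median -0.93), with 10 falls without replicate 1 of the salt-treated line. TIP2-1, of the vacuole membrane, was at 289, 390 and 346 FPKM in wild type and 10.8, 17 and 28.0 in the line (-4.29 ± 0.73, edgeR adjusted p = 0.0034), and PIP2-7, of the plasma membrane, fell from 185 ± 2.85 to 69.8 ± 6.5 (-1.50 ± 0.27, edgeR adjusted p = 0.0046). Of 16 wax and cutin genes 5 fell and 0 rose (median -1.01). Besides CER1 these included LTPG1, a lipid transfer protein gene of the epidermal surface, from 110 ± 4.93 to 40.7 ± 11.3 FPKM (-1.52 ± 0.28, edgeR adjusted p = 0.0051), and KCS1, for elongation of very long fatty acids, from 81.3 ± 8.94 to 32.6 ± 9.41. The falls were 2, 2 and 3 without line replicates 1 and 2 and wild-type replicate 3, 9 by DESeq2, 13 without replicate 1 of the salt-treated line and 13 with the 6 untreated libraries alone. Guard cell markers summed to 11.9 to 15.3 FPKM in wild type and 15.9 to 16.5 in the line, and trichome markers to 3.91 to 7.0 and 4.08 to 5.16. Of the guard cell markers FAMA and MYB60 were not called (edgeR adjusted p = 0.83 and 0.18), and EPF1 and TMM were not tested. FAMA overlapped between the genotypes. MYB60 was at 4.21, 2.62 and 4.76 FPKM against 5.30, 6.46 and 5.96. It did not overlap, as 44.0% of all genes tested did not.

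Among ion transport genes, the main sodium antiporters did not differ detectably. SOS1 (NHX7) was at 4.92 ± 0.231 FPKM in wild type and 4.54 ± 1.16 in the line (-0.20 ± 0.16, edgeR adjusted p = 0.43), and NHX1 at 59.4 ± 4.86 and 54.3 ± 9.60 (-0.22 ± 0.16, edgeR adjusted p = 0.39). The sodium transporter gene HKT1 lay below the filter at 0.75, 0.91 and 0.83 against 0.05, 0.13 and 0.44 FPKM and was not tested. Of the 15 genes tested 1 rose, the inward potassium channel gene AKT1, from 1.93 ± 0.631 to 4.92 ± 0.484 FPKM (1.26 ± 0.22, edgeR adjusted p = 0.0041). The 3 that fell were the plasma membrane proton pump gene HA2 (AHA2), from 54.4 ± 2.48 to 35.5 ± 4.46 (-0.70 ± 0.17, edgeR adjusted p = 0.019), the vacuolar calcium exchanger gene CAX1, from 430 ± 30.4 to 239 ± 24.0, and NHX4, from 3.68 ± 0.703 to 1.66 ± 0.46. These falls were 1, 0, 1, 1 and 0 without line replicates 1 and 2 and wild-type replicates 1, 2 and 3. Of 11 iron genes 4 fell, BHLH100 and by less the reductase gene FRO3 (-0.94 ± 0.28, edgeR adjusted p = 0.042), the ubiquitin ligase gene BTS and the nicotianamine synthase gene NAS1. They were 2 without line replicate 1, salt-treated wild-type replicates 1 or 2 or under the replicate block, and 1 without line replicate 2 or wild-type replicates 2 or 3.

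Smaller lists and single genes completed the picture of metabolism. The proline dehydrogenase genes POX2 and POX1, which break proline down, rose by 1.88 ± 0.32 (edgeR adjusted p = 0.0037) and 1.16 ± 0.27 (edgeR adjusted p = 0.017). The proline synthesis gene P5CSA (P5CS1) was at 73.0, 103 and 92.0 FPKM in wild type and 35.5, 27.1 and 53.2 in the line. It was not called (-1.30 ± 0.40, edgeR adjusted p = 0.05), but was with the 6 untreated libraries alone (edgeR adjusted p = 0.0041). P5CSB (P5CS2) was not called (edgeR adjusted p = 0.21). BCAT2, of branched-chain amino acid breakdown, was at 0.40, 1.00 and 0.44 FPKM in wild type and 6.92, 9.63 and 6.99 in the line (3.58 ± 0.33, edgeR adjusted p = 0.00021). EXO, a gene of cell expansion, fell from 114 ± 41.9 to 21.2 ± 3.91 FPKM (-2.51 ± 0.38, edgeR adjusted p = 0.0018). The cytosolic ascorbate peroxidase gene APX1 was at 273, 224 and 227 against 509, 492 and 502 FPKM (0.96 ± 0.17, edgeR adjusted p = 0.0041). Among further lists, 6 of 50 ERF and DREB factor genes rose and 3 fell, 2 of 20 class III peroxidase genes rose and 3 fell, and 2 of 10 cyclin genes fell. Over all genes tested 7.34% rose and 6.58% fell, and these small counts were not tested against those shares. The cyclin count was 0 without line replicates 2 or 3 or wild-type replicate 1, 4 without replicate 1 of the salt-treated line and 1 without any of 6 other libraries. The peroxidase rises were 1 without any of 8 libraries and the falls 6 without replicate 1 of the salt-treated line. At most 2 genes were called in each direction among those for ABA synthesis and breakdown (9 tested), sugar starvation (10), nitrate uptake (7), redox enzymes (10) and wall-associated kinases (3), counts that single libraries moved to between 0 and 4. Of 172 ribosomal protein genes 6 rose and 0 fell, a share below that of all genes. The rises were 1, 2, 13, 3, 2 and 2 without line replicates 1, 2 and 3 and wild-type replicates 1, 2 and 3, and 13 without replicate 1 of the salt-treated line. FLC, the repressor of flowering, lay below the filter at 0.81, 0.83 and 0.58 against 0.42, 0.33 and 0.76 FPKM.

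Along the genome, 13.3% to 14.6% of the tested genes on each of chromosomes 1 to 5 were called. The longest runs of neighbouring tested genes called in the same direction held 5 genes. On chromosome 4, from 8925571 to 8938124 (TAIR10), the glutaredoxin genes GRXS8, GRXS7, GRXS4, GRXS5 and GRXS3 all fell, by 3.32 to 4.74 on the log2 scale. GRXS8 went from 18.4 ± 1.03 to 1.89 ± 1.03 FPKM (-3.38 ± 0.49, edgeR adjusted p = 0.0015) and GRXS3 from 16.1 ± 1.3 to 1.28 ± 0.981 (-3.74 ± 0.37, edgeR adjusted p = 0.00024). These are near-identical tandem copies whose reads may be divided in an unknown way. From 2227661 to 2262320 on the same chromosome, PMP22 and the receptor kinase genes CRK36, CRK37, CRK38 and CRK39 all rose. CRK36 went from 2.30 ± 0.199 to 17.2 ± 6.42 FPKM (2.81 ± 0.56, edgeR adjusted p = 0.0077) and CRK37 from 0.427 ± 0.182 to 6.35 ± 2.98 (3.8 ± 0.77, edgeR adjusted p = 0.0086).

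Runs of 4 neighbours were found on chromosomes 1 and 2. AT1G78810, AT1G78820, AT1G78830 and AT1G78850 fell (chromosome 1, 29628234 to 29643535), the last from 194 ± 46.1 to 33.8 ± 16.6 FPKM (-2.61 ± 0.35, edgeR adjusted p = 0.00095). SYP112, TULP2, APC10 and HBI1 fell (chromosome 2, 7941778 to 7954785), among them HBI1, a growth-promoting basic helix-loop-helix factor gene, from 70.5 ± 4.52 to 23.1 ± 3.91 FPKM (-1.70 ± 0.18, edgeR adjusted p = 0.00031). Another run, from 3357619 to 3378213 on chromosome 2, rose and lies where a copy of the mitochondrial genome is inserted in Col-0, so that reads of both copies may be divided in an unknown way. Of 49 tested genes of the mitochondrial genome itself 12 rose (24.5%) and 0 fell, with a median log2FC of 0.87. Mitochondrial genes took 0.0159% to 0.0183% of the counts in wild type and 0.0267% to 0.0357% in the line, so these values rest on a small part of each library. Of 66 chloroplast genes 4 were called (6.06%).

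Under salt the same genotypes differed at more genes. The fold changes of that comparison come from other libraries than those above, but both sets of calls use 1 estimate of spread from all 12 libraries. It called 5888 genes (34.6% of those tested), 2652 higher in the line (15.6%) and 3236 lower (19.0%). That count was 3586 and 3364 without replicates 1 and 3 of salt-treated wild type, and 9185, 2649 and 2704 without replicates 1, 2 and 3 of the salt-treated line. Of the 1250 genes that rose without salt 567 also rose under salt (45.4% of the former, 21.4% of the latter) and 43 fell. Of the 1121 that fell 527 also fell (47.0% and 16.3%) and 55 rose. The sign was the same under salt for 1009 (80.7%) and 887 (79.1%), and across all 17038 genes, which are not independent replicates, the differences correlated with r = 0.559 (Spearman 0.427). The 1094 genes called the same way in both were 613 and 563 without untreated wild-type replicates 1 and 3, 580 without line replicate 1, 677 without salt-treated wild-type replicate 3, and 2887 and 709 without salt-treated line replicates 1 and 3.

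Of the 24 salicylate genes 23 were called up under salt (median 2.23), against 11 (median 0.93) without. The interaction was called for 4 of the 24 (SARD1, SARD4, LURP1 and NIMIN-1, named after their values were seen), of which 0 were called without salt. PR1 was at 4.81 under salt against 7.30 (interaction edgeR adjusted p = 0.37). Expansins and xyloglucan endotransglucosylases fell there in 11 of 17 and 13 of 21 cases. The ABA and dehydration list held 4 rises under salt with a median of -0.07, against 10 and 0.68 without. The interaction was called for 0 of its 20 genes. Of the 7 type-A response regulators 2 fell under salt against 6 without, and the interaction was called for 2 of the 7. The interaction of genotype and salt, which tests such differences gene by gene, called 1001 genes (5.88%), among them 409 of the 2371 called without salt. It did not call ATHB-7 (edgeR adjusted p = 0.28) or ARR7 (0.27), but did call ARR5 (0.015), at 9.35 ± 2.73 and 2.89 ± 0.41 FPKM without salt and with a log2FC of -1.78 there and 0.40 under salt. The interaction count was 262, 267 and 204 without wild-type replicates 1, 2 and 3, 344 and 348 without line replicates 1 and 2, 129, 221 and 363 without salt-treated wild-type replicates 1, 2 and 3, and 6270, 251 and 222 without salt-treated line replicates 1, 2 and 3.

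**Figure D5:**
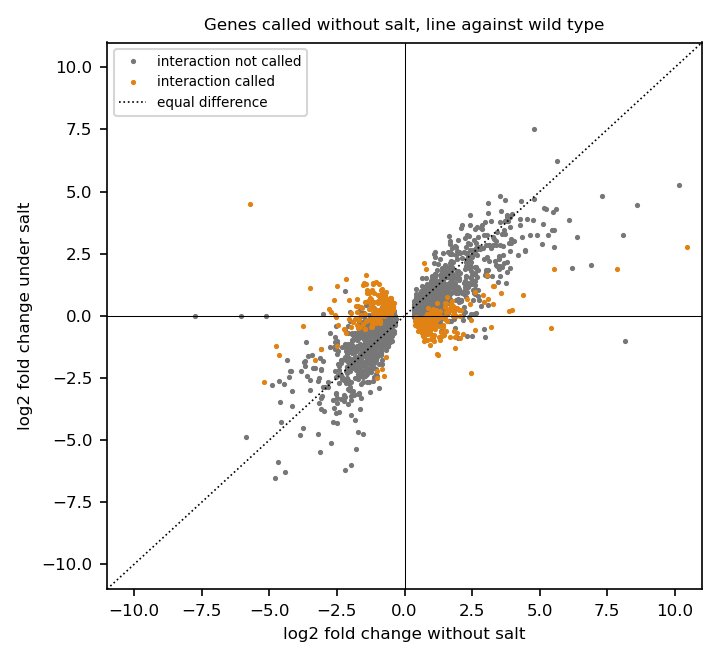
Log2 fold change of the line against wild type without salt (horizontal) and under salt (vertical) for the 2371 genes called without salt, 1 point a gene. Orange points are the 409 genes whose interaction was called, and the dotted line marks equal differences. Most points lie in the lower left and upper right, where 1009 rising and 887 falling genes kept their sign.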

How the data were processed

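RNA was extracted with TRIzol and RNeasy kits, per the labels' protocols. Per the submitters' processing notes, the build was TAIR10 and the tools were HISAT2 2.0.1, cutadapt 1.9.1 and bcl2fastq 2.17.1.14. No source used here names the program that counted reads or whether it used strand, which leaves overlapping and antisense genes uncertain. The deposited table holds raw counts per gene beside the authors' FPKM, and FPKM recomputed from the counts agreed within 0.005. Genes averaging FPKM 1 or more over all 12 libraries (17038) were fitted in R 4.3.3 by edgeR 4.0.16 (trimmed mean of M-values scaling, quasi-likelihood test, Benjamini-Hochberg over all genes). The fit used all 12 libraries with a mean for each group, and genes were called at adjusted p under 0.05. Alternatives used limma 3.58.1 and DESeq2 1.42.0, other scalings and filters, the 6 untreated libraries alone, a replicate block and each library left out. SE is the absolute log2 fold change over the square root of F. Levels are mean ± SD of FPKM over 3 libraries. Depth was 18737315 to 20560942 counts per untreated library, and counting intervals cover counting error only.

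Members and the 48 gene lists were chosen with earlier results of these data known. Genes were named by rule: the 8 largest increases and 8 largest decreases (called, bearing a symbol, at FPKM 5 or more on average in the higher group, groups not overlapping), from every list the 2 calls lowest in adjusted p (1 gene where none was called), and always FAH1, CYP84A4, OMT1, CAD5, SOS1, HKT1, NHX1, NCED3, RD29B, PR1, CCA1 and FLC. Other genes given as examples of lists or runs were chosen after their values were seen. Over all tested genes, same-numbered replicates did not deviate together (correlations -0.082, -0.007 and 0.079), so numbers were not taken as pairs. Single stress genes, picked after their values were seen, were highest in replicate 2 of both genotypes. ZAT10 was at 67.2, 288 and 99.4 FPKM in untreated wild type and 222, 440 and 241 in the untreated line. ERF018 was at 25.6, 178 and 48.6 against 55.5, 202 and 78.9. The part of such shifts in the stress lists was not tested. Scripts were tested on simulated data. The promoter window of 1 named gene is not reported here.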

Additional observations from a re-analysis of the deposited data

Results flagged for a closer look

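For 23 named genes called without salt the difference between the line and wild type was not the same under salt, by the edgeR interaction test. Values are the log2 difference under salt minus that without salt. Among genes higher in the untreated line it was -7.66 for MYB90, -5.98 for PI4KG3, -3.73 for HSP17.7, -2.68 for BCAT2, -2.44 for MYB75 and -1.87 for WRKY45. It was -1.34 for SOT17, -1.33 for both PRR3 and AKT1, and -0.79 for CYP83B1. The values for MYB90 and HSP17.7, with 0 and 3 counts in untreated wild type, depend on the prior count of the fit. Among genes lower in the untreated line it was 10.21 for BHLH100, 3.52 for GRXS7, 3.08 for CER1, 2.86 for AGP12, 2.63 for PME41 and 2.56 for GRXS10. The value for BHLH100 depends on the prior count as well, since under salt it had 0 counts in wild type and 7 in the line, all in replicate 1, where the difference was not called (edgeR adjusted p = 0.14). It was 2.02 for CYP85A2, 1.89 for EXLA1, 1.54 for IAA19, 1.19 for HA2, 1.1 for PME32, 1.05 for HEMB1 and 0.91 for HST. Each value has the sign opposite to the untreated difference. The genes were named for their untreated difference, which enters the interaction, so that shared sign is not independent of the choice.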

How the results depend on the processing

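Against 2371 genes called without salt, 3992 were called with the 6 untreated libraries alone, 1180 with a 2-fold minimum, and 1160 to 5121 when 1 library was left out. DESeq2 called 3407, limma 2921 (pseudocount 1) and 2602 (0.1), library totals 2623, a filter of FPKM 5 gave 1825 and no filter 2230. Counts within lists can be smaller under the filter of FPKM 5 because members were removed from the test. Of the 109 named genes tested, 85 passed that filter, and none of these changed its call. The under-salt count of 5888 ranged from 2649 to 9185 when 1 library was left out. The interaction count of 1001 was 2531 by DESeq2, 1569 by limma with pseudocount 1 and 644 with the replicate block, and ranged from 129 to 6270 when 1 library was left out. The 1094 genes called the same way in both conditions ranged from 563 to 2887. With the replicate number as a block 2098 genes were called without salt, and among 109 named genes tested LTP4 and ABA2 lost their call and no other call changed. No named gene reversed direction under the alternatives run. With 3 libraries a group, and 2 when 1 is left out, small differences are not detectable.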
